A study of Mus musculus with 32 samples.

Results

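A set of secreted or secretion-linked inflammatory genes was followed in mouse embryonic fibroblasts whose ATP-citrate lyase was placed in the nucleus, in the cytoplasm, in its usual distribution, or left out. They were chosen by gene symbol: the chemokines Ccl2, Ccl7, Cxcl1, Cxcl5 and Cxcl12, the cytokines Il6, Lif and Csf1, and the prostaglandin enzymes Ptgs2 and Ptges. Of these 10 genes, 9 had values, among 12053 genes measured in 1 mM glucose and 12791 in 10 mM glucose. Cxcl5 had no value in either medium and is only named here.

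All cells were Acly knockout fibroblasts that carried a vector. In Nuc cells it encoded mCherry-tagged human ACLY with added nuclear import sequences, in Cyto cells the same protein with a nuclear export sequence, in WT cells the tagged protein without either, and in KO cells mCherry alone. Cells spent 24 h in DMEM, with glucose at 1 mM or 10 mM beside 10% calf serum, and RNA-seq was made from 4 libraries per line and medium. The Cyto library 3 in 10 mM glucose, which the submitters call an anomaly, was not analysed here, so that medium has 3 Cyto libraries and 15 in all, against 16 in 1 mM glucose. The labels do not say whether the libraries of a line came from separate cultures or whether a line was derived more than once, so the p-values measure the spread among these libraries, which may be technical.

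ATP-citrate lyase makes acetyl-CoA from citrate in the cytosol and nucleus, for lipid synthesis and for protein acetylation. Fibroblasts are a source of chemokines, small secreted proteins that draw leukocytes along a gradient. Ccl2 and Ccl7 attract monocytes, Cxcl1 and Cxcl5 attract neutrophils, and Cxcl12 is a stromal chemokine that retains blood stem cells and lymphocytes. Il6 and Lif signal through receptors that share the gp130 subunit, and Csf1 is the growth factor of macrophages. Ptgs2 is the inducible cyclooxygenase COX-2, and Ptges is the inducible synthase that turns the product of COX-2 into prostaglandin E2. Several of these genes are textbook targets of the transcription factors NF-kappaB, AP-1 and C/EBP.

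The 250 bases before the annotated start are shown for Ptgs2, Il6 and Csf1, which were higher in Cyto than in KO cells in 1 mM glucose, for Cxcl12 and Ptges, which were lower, and for Cxcl1, for which no difference was called there. The sequences are RefSeq's on mouse build GRCm38.p6, read 5′ to 3′ along the strand of the gene, and 7 of the 10 genes had an entry. They lie at chr1:150099781-150100030 on the plus strand for Ptgs2, chr5:30012864-30013113 on the plus strand for Il6, chr3:107760470-107760719 on the minus strand for Csf1, chr5:90890995-90891244 on the plus strand for Cxcl1, chr6:117168285-117168534 on the plus strand for Cxcl12 and chr2:30903298-30903547 on the minus strand for Ptges. Capitals mark matches, on either strand, to the kappaB consensus, the AP-1 element TGANTCA, the C/EBP element TTGCNNAA, the CRE core TGACG and the TATA box TATAAA.
Ptgs2: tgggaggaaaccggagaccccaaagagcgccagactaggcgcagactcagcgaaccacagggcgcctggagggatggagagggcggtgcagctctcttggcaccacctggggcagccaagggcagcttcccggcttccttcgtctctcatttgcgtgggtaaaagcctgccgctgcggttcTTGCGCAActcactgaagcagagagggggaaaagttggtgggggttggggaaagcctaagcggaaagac
Il6: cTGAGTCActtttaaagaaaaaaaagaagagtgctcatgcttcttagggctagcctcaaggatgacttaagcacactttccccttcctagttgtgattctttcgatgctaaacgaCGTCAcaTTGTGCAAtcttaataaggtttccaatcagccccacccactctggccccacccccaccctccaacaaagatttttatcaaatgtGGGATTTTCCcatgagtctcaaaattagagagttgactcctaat
Csf1: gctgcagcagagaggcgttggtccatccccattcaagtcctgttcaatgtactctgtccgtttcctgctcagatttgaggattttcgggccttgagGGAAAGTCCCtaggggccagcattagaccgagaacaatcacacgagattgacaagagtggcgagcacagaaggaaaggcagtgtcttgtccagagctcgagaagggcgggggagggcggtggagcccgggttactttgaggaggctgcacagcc
Cxcl1: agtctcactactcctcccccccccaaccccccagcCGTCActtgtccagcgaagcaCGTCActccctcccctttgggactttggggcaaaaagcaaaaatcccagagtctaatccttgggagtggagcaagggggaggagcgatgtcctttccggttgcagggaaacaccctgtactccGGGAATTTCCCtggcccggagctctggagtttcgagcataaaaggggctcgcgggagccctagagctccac
Cxcl12: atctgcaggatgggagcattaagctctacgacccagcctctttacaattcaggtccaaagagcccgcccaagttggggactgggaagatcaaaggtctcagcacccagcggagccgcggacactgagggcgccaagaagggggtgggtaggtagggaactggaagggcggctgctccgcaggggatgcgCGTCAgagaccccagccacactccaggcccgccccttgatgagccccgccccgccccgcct
Ptges: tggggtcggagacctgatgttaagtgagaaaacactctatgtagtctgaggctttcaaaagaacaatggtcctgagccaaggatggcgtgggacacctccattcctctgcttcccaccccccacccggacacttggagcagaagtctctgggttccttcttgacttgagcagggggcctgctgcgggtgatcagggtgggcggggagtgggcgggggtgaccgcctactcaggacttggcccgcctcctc
The kappaB consensus matched in Cxcl1, where a pair of overlapping matches on opposite strands began 71 and 70 bases before the start, in Il6 at 44 bases and in Csf1 at 154 bases. It was found in 3.90% of the 32851 promoters of this length in the same table. The C/EBP element matched in Ptgs2 at 69 bases, where it reads the same on both strands, and in Il6 at 128 bases, against 9.56% of all promoters. In Il6 the AP-1 element began at 249 bases, against 6.75% of all promoters. Lif, the other gene with an entry, is not shown and had an AP-1 match at 228 bases. The CRE core matched at 135 bases in Il6, where it does not overlap the C/EBP match, at 215 and 194 bases in Cxcl1 and at 61 bases in Cxcl12, against 17.8% of all promoters. TATAAA, found in 12.4% of promoters, had no match in these 6 windows, and Ptges had no match to any of the 5 motifs. Ptgs2 and Csf1 share no match, and a match is a description of letters, not of a bound site.

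Values are the authors' normalized log2 expression levels. Their scaling is not stated, and their linear sums of 933382 to 1097740 per library resemble CPM (counts scaled to a fixed library total). Each medium was normalized separately, so levels are compared within a medium and, since they are not divided by transcript length, within a gene. Depth could not be recovered from them. As the check of the lines, Acly averaged 8.97 in Nuc, 10.50 in Cyto, 10.57 in WT and 5.35 in KO cells in 1 mM glucose. Its averages in 10 mM glucose were 9.12 in Nuc, 9.74 in Cyto, 10.21 in WT and 5.87 in KO cells. The values do not separate the human transgene from mouse Acly. Nuc cells thus had less Acly signal than Cyto cells, at -1.53 ± 0.07 (SE) in 1 mM and -0.62 ± 0.10 in 10 mM glucose on the log2 scale, and the part of this in the differences between those lines was not tested. All 12 fibroblast markers looked for were measured, with Thy1, Lum and Dcn low, between -3.29 and 5.53. Of 12 macrophage and leukocyte markers only Cd68, Csf1r and Lyz2 had values, and Ptprc, Adgre1 and Itgam had none. Of 8 endothelial markers 2 had values in 1 mM and 3 in 10 mM glucose, and of 8 epithelial markers Krt19 alone.

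**Figure D1:**
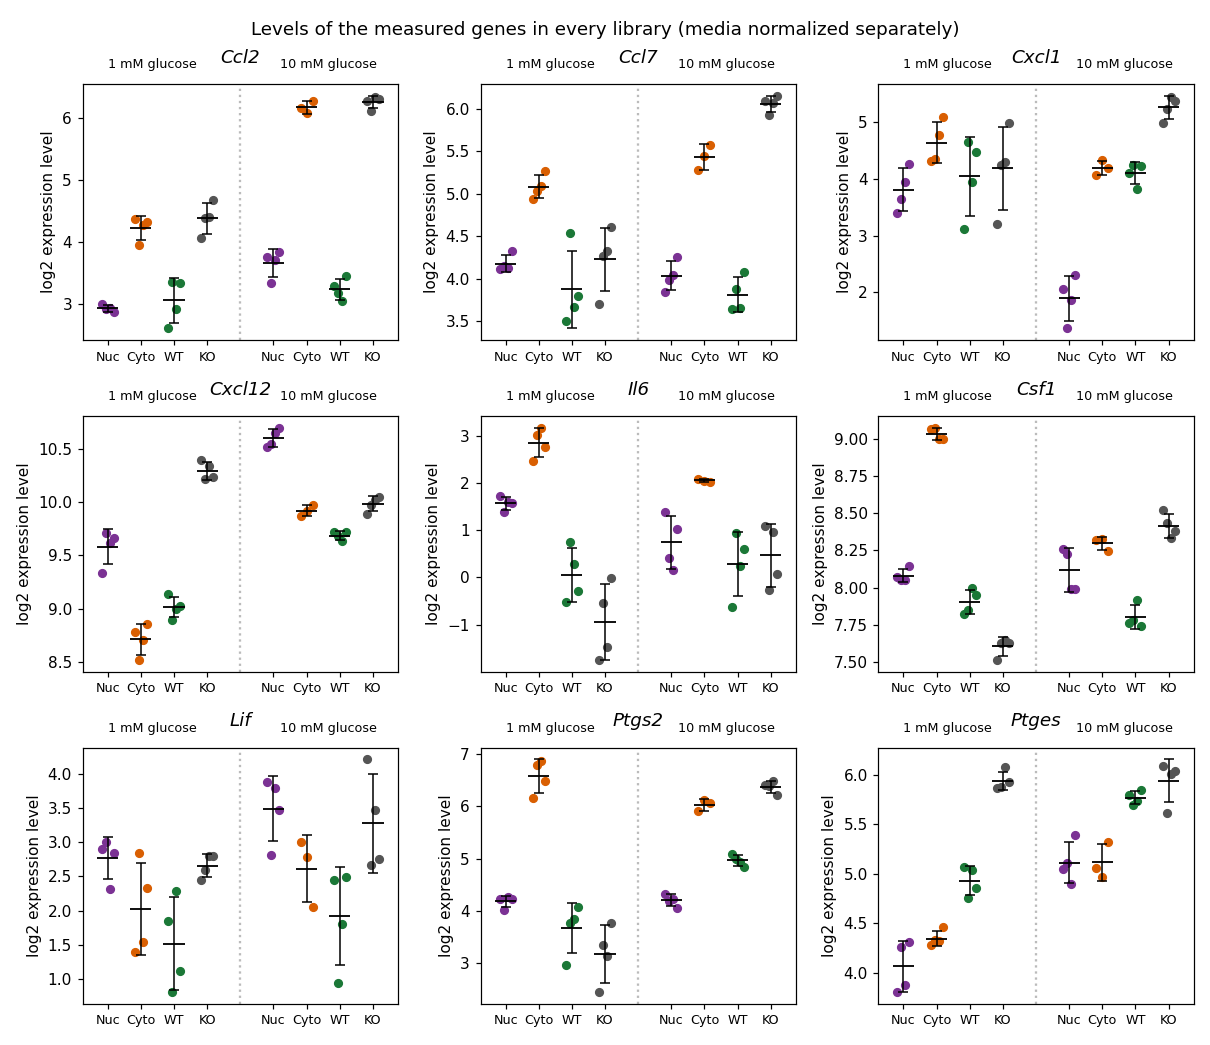
Log2 expression level (vertical axis, the authors' normalized values) of the 9 measured genes in every library. In each panel 1 mM glucose is on the left and 10 mM on the right, with Nuc, Cyto, WT and KO cells side by side; points are libraries, horizontal bars means and whiskers 1 SD (n = 4, and n = 3 for Cyto in 10 mM glucose). Ptgs2 lies highest in Cyto cells on the left, between 6.16 and 6.86, and highest in KO cells on the right, between 6.21 and 6.49.

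The prostaglandin enzyme Ptgs2 had the widest change of the 9 genes in 1 mM glucose after Il6. Its log2 level in 1 mM glucose was 4.23, 4.03, 4.28 and 4.22 in Nuc cells, 6.16, 6.80, 6.86 and 6.49 in Cyto cells, 2.98, 3.78, 3.86 and 4.09 in WT cells and 2.46, 3.35, 3.14 and 3.77 in KO cells. Every Cyto library lay above every other library, and WT and KO libraries overlapped. Ptgs2 was 10.5-fold higher in Cyto than in KO cells (log2 fold change 3.40 ± 0.25 SE, limma adjusted p = 3.69e-09) and 2.01-fold higher in Nuc than in KO cells (1.01 ± 0.25, limma adjusted p = 0.00220). Nuc cells were below Cyto cells, with a log2 fold change of -2.39 ± 0.25 (limma adjusted p = 8.78e-07). The difference between WT and KO cells, 0.50 ± 0.25, was not called (limma adjusted p = 0.0981); it was called without WT library 1 (0.73, limma adjusted p = 0.0131) or KO library 4 (0.69, limma adjusted p = 0.0248), and with quantile normalization (0.66, limma adjusted p = 0.0346).

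The order was different in 10 mM glucose. Ptgs2 stood at 4.34, 4.19, 4.24 and 4.07 in Nuc cells, 5.91, 6.12 and 6.06 in Cyto cells, 5.10, 5.00, 4.94 and 4.85 in WT cells and 6.41, 6.39, 6.49 and 6.21 in KO cells. None of these 4 groups overlapped, and KO cells were now the highest and Nuc cells the lowest. Against KO cells the log2 fold change was -2.17 ± 0.09 in Nuc (limma adjusted p = 1.63e-11), -0.35 ± 0.09 in Cyto (limma adjusted p = 0.00790) and -1.41 ± 0.09 in WT cells (limma adjusted p = 3.63e-09). Without Cyto library 1 the Cyto value was -0.28 and no longer called (limma adjusted p = 0.0506). The Nuc level was thus below the Cyto level in both media, with a log2 fold change of -1.82 ± 0.09 in 10 mM glucose, whereas the sign against KO cells differed between the media.

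Ptges did not follow Ptgs2. Its level in 1 mM glucose was 3.81, 4.27, 3.88 and 4.31 in Nuc cells, 4.28, 4.33, 4.32 and 4.46 in Cyto cells, 5.07, 4.76, 5.04 and 4.86 in WT cells and 5.87, 5.88, 6.08 and 5.92 in KO cells. All KO libraries were above all WT libraries, and those above all Cyto and Nuc libraries, which overlapped each other. Ptges was 3.66-fold lower in Nuc than in KO cells (log2 fold change -1.87 ± 0.11, limma adjusted p = 2.92e-10), 3.01-fold lower in Cyto (-1.59 ± 0.11, limma adjusted p = 1.66e-09) and 2.01-fold lower in WT cells (-1.01 ± 0.11, limma adjusted p = 7.56e-07). The fold change of Nuc over Cyto cells, -0.28 ± 0.11, was just called (limma adjusted p = 0.0492); leaving out any of Cyto libraries 1 to 4, Nuc library 1 or Nuc library 3 ended that call, with adjusted p from 0.0595 to 0.168. So did a pseudocount, no trend in the prior variance, equal library medians and a fit of these lines alone, with adjusted p from 0.0518 to 0.0674. Ptges in 10 mM glucose ranged from 4.89 to 5.40 in Nuc, 4.97 to 5.32 in Cyto, 5.70 to 5.85 in WT and 5.62 to 6.09 in KO cells. It was again lower than in KO cells in Nuc (-0.83 ± 0.12, limma adjusted p = 2.91e-05) and Cyto cells (-0.82 ± 0.13, limma adjusted p = 9.28e-05), while WT and KO libraries overlapped (-0.17 ± 0.12, limma adjusted p = 0.279).

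The rest of the prostaglandin pathway was described from a list of 20 other genes of synthesis, transport and breakdown. With values for 14 in 1 mM glucose, 7 were higher and 5 lower in Nuc than in KO cells, 6 higher and 5 lower in Cyto, and 6 higher and 4 lower in WT cells. With values for 15 in 10 mM glucose, 2 were higher and 5 lower in Nuc, 6 higher and 3 lower in Cyto and 4 higher and 3 lower in WT cells. The called share in 1 mM glucose was 85.7% in Nuc, 78.6% in Cyto and 71.4% in WT cells, beside 60.0%, 64.7% and 58.2% of all genes in the same order. In 10 mM glucose it was 46.7% in Nuc, 60.0% in Cyto and 46.7% in WT cells, beside 45.3%, 38.5% and 40.8% of all genes. Pla2g4a, the cytosolic phospholipase that frees arachidonic acid for the cyclooxygenases, was higher than in KO cells in Nuc (log2 fold change 0.40 ± 0.07) and Cyto cells (1.13 ± 0.07) in 1 mM glucose, and lower in all 3 ACLY lines in 10 mM glucose (Nuc -0.75 ± 0.07, Cyto -0.30 ± 0.07, WT -0.77 ± 0.07). On the mouse map Pla2g4a is the protein-coding gene next to Ptgs2. Slco2a1, the transporter that takes prostaglandins up into cells, was lower than in KO cells in each ACLY line and medium, down to -3.11 ± 0.19 in Cyto cells in 10 mM and -2.67 ± 0.15 in WT cells in 1 mM glucose. Slco3a1, an organic anion transporter, was also lower in all 6 of these comparisons, from -1.96 ± 0.14 to -0.45 ± 0.13, both in Cyto cells. Cbr1, a carbonyl reductase that can reduce prostaglandin E2, was lower in 1 mM glucose in Nuc (-2.20 ± 0.12), Cyto (-1.47 ± 0.12) and WT cells (-0.57 ± 0.12). At 10 mM glucose it was lower in Nuc cells (-1.46 ± 0.15) and not called in Cyto (0.14 ± 0.17) or WT cells (-0.06 ± 0.15).

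Of the receptors for prostaglandin E2, Ptger1 and Ptger4 had values and Ptger2 and Ptger3 had none. Ptger4 was higher in Nuc and Cyto than in KO cells in 1 mM (Nuc 0.36 ± 0.12, Cyto 1.71 ± 0.12) and in 10 mM glucose (Nuc 0.75 ± 0.11, Cyto 1.25 ± 0.12). Ptger1 was lower than in KO cells in Cyto (-1.22 ± 0.34) and WT cells (-1.19 ± 0.34) in 1 mM, and higher in Nuc cells (0.72 ± 0.19) in 10 mM glucose.

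**Figure D2:**
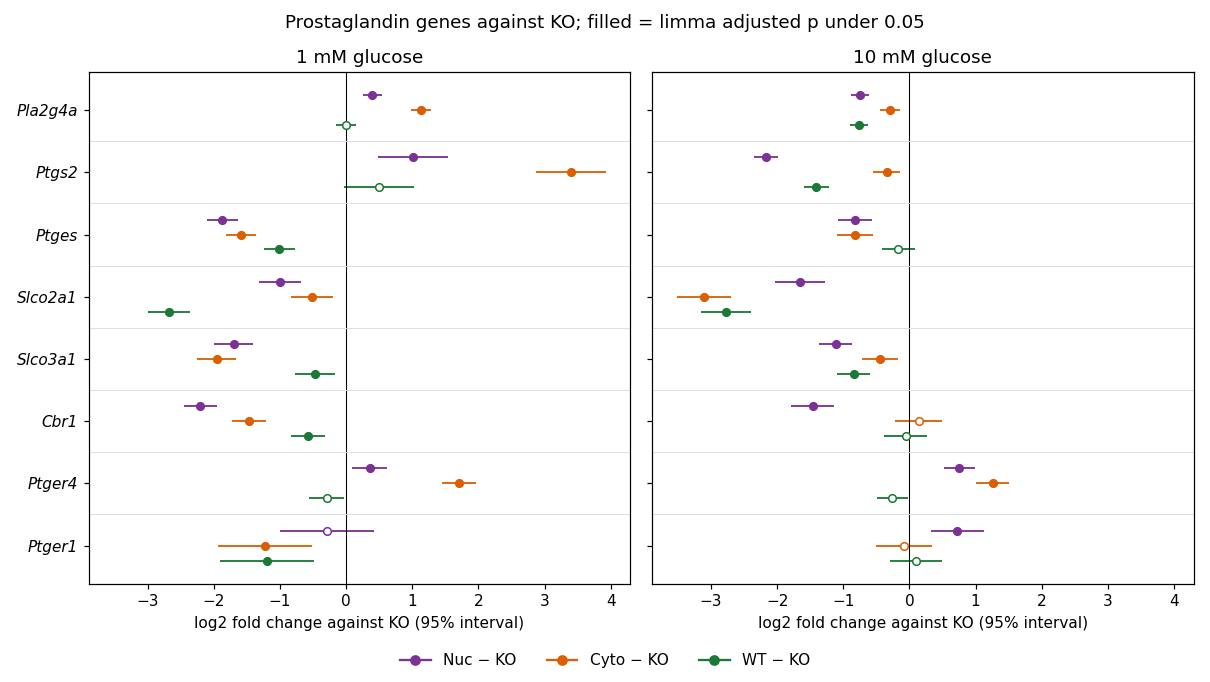
Log2 fold change against KO cells (horizontal axis) of Ptgs2, Ptges and 6 other prostaglandin genes in 1 mM (left) and 10 mM glucose (right). Points are Nuc, Cyto and WT cells from top to bottom with 95% intervals, filled where the limma adjusted p was under 0.05. Ptgs2 and Pla2g4a lie to the right of 0 in Nuc and Cyto cells in 1 mM glucose and to the left in all 3 lines in 10 mM glucose, while Slco2a1 lies to the left throughout.

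Among the cytokines, Il6, which drives the acute-phase response, had the largest fold change in 1 mM glucose, at a low level of expression. Its level there was 1.72, 1.38, 1.59 and 1.57 in Nuc cells, 2.46, 3.01, 3.17 and 2.76 in Cyto cells, -0.52, 0.75, 0.28 and -0.28 in WT cells and -1.74, -0.54, -1.48 and -0.01 in KO cells. Cyto libraries were the highest and Nuc libraries the next, with no overlap, and WT and KO libraries overlapped. Il6 was 13.8-fold higher in Cyto than in KO cells (log2 fold change 3.79 ± 0.34, limma adjusted p = 4.94e-08) and 5.68-fold higher in Nuc than in KO cells (2.51 ± 0.34, limma adjusted p = 8.32e-06). The difference between WT and KO cells, 1.00 ± 0.34, was called (limma adjusted p = 0.0197), but not without KO library 1 (0.73, limma adjusted p = 0.0757), KO library 3 (0.82, limma adjusted p = 0.0664) or WT library 2 (0.77, limma adjusted p = 0.0643), with a pseudocount (0.41, limma adjusted p = 0.0512) or with these lines fitted alone (limma adjusted p = 0.0905).

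Il6 in 10 mM glucose was at 1.39, 0.40, 0.16 and 1.02 in Nuc cells, 2.08, 2.04 and 2.03 in Cyto cells, -0.63, 0.93, 0.23 and 0.61 in WT cells and 1.09, -0.27, 0.97 and 0.07 in KO cells. Only the Cyto libraries stood clear of the KO libraries. Il6 was 3.00-fold higher in Cyto than in KO cells (log2 fold change 1.59 ± 0.42, limma adjusted p = 0.00700), and differences of 0.28 ± 0.39 in Nuc and -0.18 ± 0.39 in WT cells were not called. Without the libraries numbered 4 the Cyto value was 1.47 (limma adjusted p = 0.0517). The fold change of Nuc over Cyto cells was -1.31 ± 0.42 (limma adjusted p = 0.0272), and leaving out Cyto library 1, 2 or 4 or Nuc library 2 or 3 ended that call, with adjusted p between 0.0663 and 0.0781, as did leaving out the libraries numbered 4 (-1.41, limma adjusted p = 0.0729).

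Csf1 moved like Ptgs2 and Il6 in 1 mM glucose, with a much smaller spread. The levels were 8.07, 8.05, 8.05 and 8.15 in Nuc cells, 9.07, 9.07, 9.0 and 9.0 in Cyto cells, 7.82, 7.85, 8.0 and 7.95 in WT cells and 7.51, 7.63, 7.65 and 7.63 in KO cells, and no pair of groups overlapped. Csf1 was 2.70-fold higher in Cyto than in KO cells (log2 fold change 1.43 ± 0.05, limma adjusted p = 1.16e-12), and higher by 0.48 ± 0.05 in Nuc and 0.30 ± 0.05 in WT cells. Its range in 10 mM glucose was from 7.99 to 8.26 in Nuc, 8.25 to 8.32 in Cyto, 7.74 to 7.92 in WT and 8.33 to 8.52 in KO cells. It was lower than in KO cells in Nuc (-0.30 ± 0.07, limma adjusted p = 0.00216) and WT cells (-0.62 ± 0.07, limma adjusted p = 3.18e-06), while -0.12 ± 0.08 in Cyto cells was not called although all Cyto libraries lay under all KO libraries (limma adjusted p = 0.236).

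Lif, a gp130 cytokine used to keep mouse stem cells undifferentiated, set WT cells apart from KO and Nuc cells in both media. Its range in 1 mM glucose was from 2.32 to 3.01 in Nuc, 1.40 to 2.83 in Cyto, 0.81 to 2.29 in WT and 2.45 to 2.79 in KO cells. The ranges in 10 mM glucose were 2.82 to 3.87 in Nuc, 2.06 to 3.00 in Cyto, 0.95 to 2.49 in WT and 2.66 to 4.21 in KO cells. WT libraries lay under all KO libraries, with log2 fold changes of -1.14 ± 0.32 in 1 mM (limma adjusted p = 0.00586) and -1.35 ± 0.38 in 10 mM glucose (limma adjusted p = 0.00942). Nuc cells were higher than WT cells by 1.25 ± 0.32 in 1 mM (limma adjusted p = 0.00527) and 1.57 ± 0.38 in 10 mM glucose (limma adjusted p = 0.00529). Nuc and KO libraries overlapped in both media. The Cyto libraries were spread widely, and in 1 mM glucose the call against KO cells depended on Cyto library 2, without which the log2 fold change was -0.90 (limma adjusted p = 0.0186, against 0.0935 with it) and that of Nuc over Cyto cells 1.01 (limma adjusted p = 0.0170, against 0.0734 with it). Without WT library 3 Cyto was above WT cells by 0.76 (limma adjusted p = 0.0495).

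The monocyte chemokine Ccl2 was lower in Nuc and WT cells than in Cyto and KO cells in both media. Its level was, in 1 mM glucose, 3.00, 2.91, 2.93 and 2.86 in Nuc cells, 4.37, 3.95, 4.28 and 4.31 in Cyto cells, 2.61, 3.36, 2.92 and 3.33 in WT cells and 4.07, 4.38, 4.39 and 4.68 in KO cells. Its level in 10 mM glucose was 3.75, 3.33, 3.71 and 3.83 in Nuc cells, 6.16, 6.07 and 6.27 in Cyto cells, 3.28, 3.17, 3.04 and 3.45 in WT cells and 6.27, 6.10, 6.33 and 6.30 in KO cells. In each medium all Nuc and WT libraries lay below all Cyto and KO libraries, and Cyto overlapped KO. Against KO cells Ccl2 was 6.04-fold lower in Nuc (log2 fold change -2.59 ± 0.12, limma adjusted p = 4.85e-11) and 8.09-fold lower in WT cells (-3.02 ± 0.12, limma adjusted p = 1.58e-11) in 10 mM glucose. The same fold changes were, in 1 mM glucose, -1.45 ± 0.16 in Nuc (limma adjusted p = 6.09e-07) and -1.32 ± 0.16 in WT cells (limma adjusted p = 2.28e-06). For Cyto against KO cells the differences, -0.15 with a 95% interval of -0.49 to 0.18 in 1 mM and -0.08 with an interval of -0.35 to 0.18 in 10 mM glucose, were not called. Nuc cells were above WT cells in 10 mM glucose by 0.42 ± 0.12, with overlapping libraries (limma adjusted p = 0.0118, and 0.0534 with these lines fitted alone), while -0.13 ± 0.16 in 1 mM glucose was not called.

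Ccl7, the coding gene next to Ccl2 and another ligand of the monocyte receptor, resembled it in 10 mM glucose. There it ranged from 3.84 to 4.25 in Nuc, 5.28 to 5.58 in Cyto, 3.65 to 4.08 in WT and 5.93 to 6.15 in KO cells. It was lower than in KO cells in Nuc (log2 fold change -2.03 ± 0.12, limma adjusted p = 9.12e-10), Cyto (-0.63 ± 0.12, limma adjusted p = 8.10e-04) and WT cells (-2.25 ± 0.12, limma adjusted p = 3.43e-10). Ranges in 1 mM glucose were 4.11 to 4.33 in Nuc, 4.94 to 5.27 in Cyto, 3.50 to 4.53 in WT and 3.70 to 4.60 in KO cells. Cyto cells were there above all others, by 0.86 ± 0.19 over KO cells (limma adjusted p = 9.19e-04), and Nuc (-0.05 ± 0.19) and WT cells (-0.35 ± 0.19) were not called against KO cells. WT library 2 and KO library 1 bore on this: the log2 fold change of WT over KO cells was -0.57 without WT library 2 (limma adjusted p = 0.00363) and -0.53 without KO library 1 (limma adjusted p = 0.0229), and Nuc was above WT cells by 0.53 without WT library 2 (limma adjusted p = 0.0102, against 0.224 with it). Library weights also gave both calls, at -0.55 for WT over KO (limma adjusted p = 0.00212) and 0.50 for Nuc over WT cells (limma adjusted p = 0.00484).

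The neutrophil chemokine Cxcl1 differed between the lines in 10 mM glucose. Its level there was 2.05, 1.37, 1.86 and 2.31 in Nuc cells, 4.06, 4.32 and 4.19 in Cyto cells, 4.10, 4.25, 3.82 and 4.22 in WT cells and 4.98, 5.22, 5.45 and 5.37 in KO cells. Nuc libraries lay far below all others, and Cyto and WT libraries overlapped below the KO libraries. Cxcl1 was 10.2-fold lower in Nuc than in KO cells (log2 fold change -3.36 ± 0.17, limma adjusted p = 3.02e-10), with log2 fold changes of -1.06 ± 0.19 in Cyto (limma adjusted p = 2.81e-04) and -1.16 ± 0.17 in WT cells (limma adjusted p = 5.96e-05). The values in 1 mM glucose were 3.40, 3.64, 3.94 and 4.26 in Nuc cells, 4.32, 4.35, 4.78 and 5.08 in Cyto cells, 3.11, 4.64, 3.94 and 4.47 in WT cells and 3.21, 4.24, 4.30 and 4.99 in KO cells. The spread within lines was wide, all groups but Nuc and Cyto overlapped, and none of the 6 comparisons was called. Nuc against Cyto, -0.82 ± 0.35, was the nearest (limma adjusted p = 0.0667). It was called with library weights (-0.84, limma adjusted p = 0.0212) and with these lines fitted alone (limma adjusted p = 0.00548), and Cyto was above WT cells with library weights (0.82, limma adjusted p = 0.0322).

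Cxcl12, the stromal chemokine, was the only member called higher in Nuc cells than in both other ACLY lines in both media. Lif also had its highest mean in Nuc cells in both media, but its difference from Cyto cells was not called. The level of Cxcl12 in 1 mM glucose was 9.34, 9.71, 9.62 and 9.67 in Nuc cells, 8.78, 8.52, 8.70 and 8.86 in Cyto cells, 9.14, 8.90, 9.0 and 9.03 in WT cells and 10.39, 10.21, 10.34 and 10.24 in KO cells. The 4 groups did not overlap, and all 3 ACLY lines were below KO cells, with log2 fold changes of -0.71 ± 0.09 in Nuc (limma adjusted p = 1.88e-06), -1.58 ± 0.09 in Cyto (limma adjusted p = 1.00e-10) and -1.28 ± 0.09 in WT cells (limma adjusted p = 2.56e-09). The level in 10 mM glucose was 10.52, 10.54, 10.65 and 10.70 in Nuc cells, 9.87, 9.92 and 9.97 in Cyto cells, 9.72, 9.68, 9.63 and 9.71 in WT cells and 9.89, 9.97, 10.02 and 10.05 in KO cells. Nuc libraries were then above all others, by 0.62 ± 0.05 over KO cells (limma adjusted p = 8.98e-08), WT libraries were below KO libraries at -0.30 ± 0.05 (limma adjusted p = 2.85e-04), and Cyto libraries overlapped KO libraries (-0.06 ± 0.06), a difference that was called after quantile normalization (-0.13, limma adjusted p = 0.0276).

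**Figure D3:**
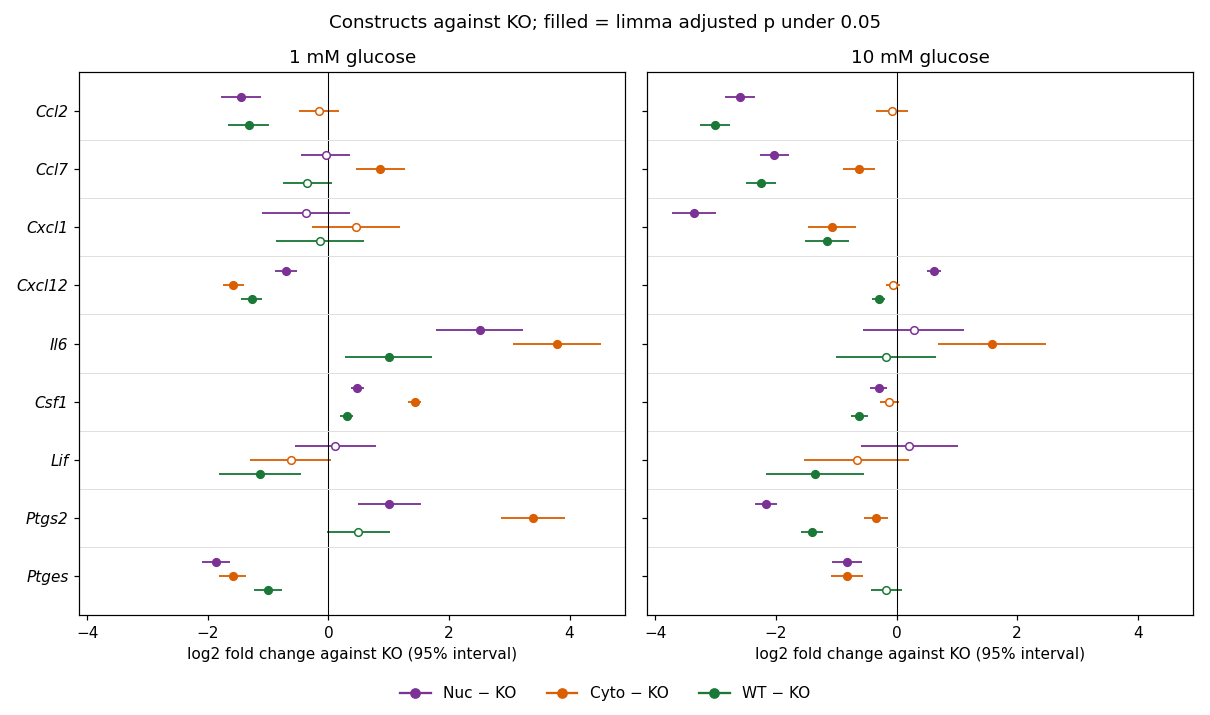
Log2 fold change against KO cells (horizontal axis) of the 9 genes in 1 mM (left) and 10 mM glucose (right), with 95% intervals. Within each gene the points are Nuc, Cyto and WT cells from top to bottom, filled where the limma adjusted p was under 0.05. Under 10 mM glucose all 7 filled WT points lie left of 0, and in 1 mM glucose the Cyto points of Il6, Ptgs2, Csf1 and Ccl7 lie to the right.

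Counted over the 9 genes, many comparisons were called, against a high background of calls among all genes. Between Nuc and KO cells in 1 mM glucose 6 of 9 were called, 3 higher and 3 lower, where 60.0% of all genes were called, 30.5% higher and 29.5% lower. For Cyto against KO cells 6 were called, 4 higher (Il6, Ptgs2, Csf1 and Ccl7) and 2 lower (Cxcl12 and Ptges). Of all genes 64.7% were called there, 31.7% higher and 33.0% lower. WT against KO cells gave 6 calls, 2 higher and 4 lower, against 58.2% of all genes, 29.7% higher and 28.5% lower. These shares are near the background, so the number of calls says little about the 9 genes, and what can be described is their direction and size.

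Directions were less mixed in 10 mM glucose. Nuc against KO cells gave 7 calls, 1 higher (Cxcl12) and 6 lower, where 45.3% of all genes were called, 22.7% in each direction. For Cyto against KO cells 5 were called, 1 higher (Il6) and 4 lower, against 38.5% of all genes, 19.6% higher and 18.9% lower. WT against KO cells gave 7 calls, all lower, against 40.8% of all genes, 20.6% higher and 20.2% lower. The median log2 fold change over the 9 genes was -0.83 in Nuc, -0.35 in Cyto and -1.16 in WT cells, beside medians over all genes that round to 0. These 3 comparisons share the KO libraries, so their counts are not separate observations.

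Nuc and Cyto cells differ by the targeting sequence of the same protein, and also in Acly signal. That signal was lower in Nuc cells, at -1.53 ± 0.07 in 1 mM and -0.62 ± 0.10 in 10 mM glucose, and its part in the differences below was not tested. Between these lines 7 of the 9 genes were called in 1 mM glucose, 1 higher in Nuc cells (Cxcl12) and 6 lower, against 41.0% of all genes, 20.4% higher and 20.5% lower. At 10 mM glucose 6 were called, 1 higher (Cxcl12 again) and 5 lower (Ccl2, Ccl7, Cxcl1, Il6 and Ptgs2), against 31.0% of all genes, 15.3% higher and 15.7% lower. The median over the 9 genes was -0.91 in 1 mM and -1.31 in 10 mM glucose, beside 0.01 over all genes in 1 mM glucose and a median that rounds to 0 in 10 mM glucose. Ccl2 had the largest of these differences in 10 mM glucose, -2.51 ± 0.13 (limma adjusted p = 7.21e-10), followed by Cxcl1 at -2.29 ± 0.19 (limma adjusted p = 1.51e-07). Lif was 0.74 ± 0.32 in 1 mM and 0.88 ± 0.41 in 10 mM glucose, with neither called, the second being called with these lines fitted alone (limma adjusted p = 0.0489). Csf1 in 10 mM glucose, -0.18 ± 0.08, was not called either (limma adjusted p = 0.0788), and was called without Nuc library 1 (-0.23, limma adjusted p = 0.0341).

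Against WT cells, Cyto cells had 7 of 9 called in 1 mM glucose, 5 higher and 2 lower, where 53.2% of all genes were called, 25.7% higher and 27.5% lower. At 10 mM glucose 7 were called as well, 6 higher and 1 lower (Ptges), where 31.5% of all genes were called, 15.9% higher and 15.6% lower. The largest were Ptgs2 at 2.90 ± 0.25 (limma adjusted p = 5.64e-08) in 1 mM and Ccl2 at 2.93 ± 0.13 (limma adjusted p = 1.18e-10) in 10 mM glucose. Nuc cells against WT cells had 5 called in 1 mM glucose, 4 higher and 1 lower, where 39.1% of all genes were called, 19.7% higher and 19.4% lower. The same comparison gave 7 calls in 10 mM glucose, 4 higher and 3 lower, where 28.8% of all genes were called, 15.0% higher and 13.8% lower. The 3 lower in 10 mM glucose were Cxcl1 (-2.20 ± 0.17), Ptgs2 (-0.76 ± 0.09) and Ptges (-0.66 ± 0.12).

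Whether a fold change differed between the media was tested on the fold changes formed within each medium's own table, for 11931 genes measured in both. Each medium was also its own batch, so medium and batch cannot be told apart. For Nuc against KO cells 8 of 9 differences were called, 6 higher in 1 mM glucose and 2 lower, where 36.5% of all genes were called, 17.8% higher and 18.7% lower. For Cyto against KO cells 7 were called, 5 higher and 2 lower, where 44.7% of all genes were called, 21.5% higher and 23.2% lower. For WT against KO cells 6 were called, 4 higher and 2 lower, where 26.2% were called, 13.5% higher and 12.7% lower. Among the 3 that were not called for WT cells, Cxcl1 (1.02 ± 0.41, limma adjusted p = 0.0684) was called without WT library 1 (1.33, limma adjusted p = 0.0106) or KO library 4 (1.29, limma adjusted p = 0.0175) of 1 mM glucose. Il6 (1.18 ± 0.53, limma adjusted p = 0.106) was called without that KO library (1.49, limma adjusted p = 0.0368), with quantile normalization (1.58, limma adjusted p = 0.0308) or with library weights (1.32, limma adjusted p = 0.0463). The largest were those of Ptgs2, at 3.17 ± 0.28 for Nuc (limma adjusted p = 5.94e-10), 3.74 ± 0.29 for Cyto (limma adjusted p = 3.20e-11) and 1.90 ± 0.28 for WT cells (limma adjusted p = 7.61e-06). KO cells had the highest mean Ptgs2 level of the 4 lines in 10 mM glucose and the lowest in 1 mM glucose, and the KO level enters each of these differences. Cxcl12 and Ptges went the other way in all 3 lines, with differences from -1.52 ± 0.11 (Cxcl12, Cyto) to -0.77 ± 0.17 (Ptges, Cyto). For Ccl2 the Cyto difference was -0.07 with a 95% interval of -0.50 to 0.36, beside 1.14 ± 0.20 for Nuc and 1.69 ± 0.20 for WT cells. No difference was called for Lif, whose intervals reached from -1.18 to 1.29.

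For Nuc against Cyto cells 3 of 9 media differences were called, where 19.0% of all genes were called, 9.47% higher and 9.48% lower. They were Ccl2 at 1.21 ± 0.21 (limma adjusted p = 9.01e-05), Cxcl1 at 1.47 ± 0.43 (limma adjusted p = 0.0150) and Csf1 at -0.78 ± 0.09 (limma adjusted p = 1.56e-07). A positive value here means that Nuc cells lay less far below Cyto cells in 1 mM than in 10 mM glucose. The count was 5 when only these 4 groups were fitted, with Ccl7 (0.50, limma adjusted p = 0.0258) and Ptgs2 (-0.57, limma adjusted p = 0.0365) called too.

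**Figure D4:**
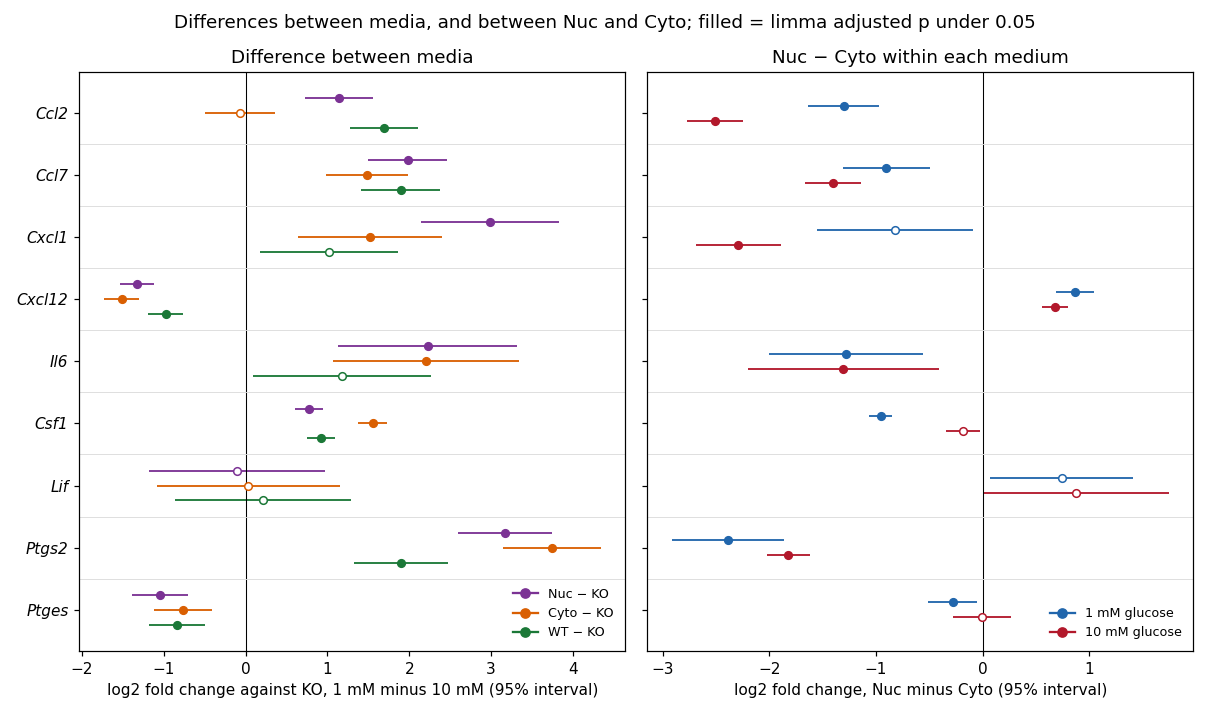
Left, the log2 fold change against KO cells in 1 mM minus that in 10 mM glucose for Nuc, Cyto and WT cells from top to bottom within each gene; right, the log2 fold change of Nuc minus Cyto cells in 1 mM (upper point) and 10 mM glucose (lower point). Bars are 95% intervals, and points are filled where the limma adjusted p was under 0.05. On the left Ptgs2 reaches 3.74 in Cyto cells while Cxcl12 and Ptges lie below 0, and on the right Cxcl12 is the gene with filled points above 0.

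Across libraries, pairs of the 9 genes ran together to different degrees in the 2 media, which is a description over libraries that share their lines. In 1 mM glucose Pearson's r over 16 libraries was 0.97 between Csf1 and Ptgs2, 0.91 between Il6 and Ptgs2, 0.89 between Il6 and Csf1 and -0.83 between Il6 and Ptges. With 10 mM glucose r over 15 libraries was 0.97 between Ccl2 and Ccl7, 0.89 between Ccl2 and Ptgs2, 0.89 between Cxcl1 and Ptgs2, and 0.21 between Il6 and Ptgs2. The genes outside the list whose pattern was most like a member's, by the lower of the 2 r values, were Sfxn1 (0.98 in 1 mM and 0.96 in 10 mM glucose) and Prmt3 (0.97 and 0.95) for Ptgs2, Uba1 (0.94 and 0.97) and Pdha1 (0.94 and 0.94) for Ccl2, and Ndrg1 (0.93 and 0.93) and Cacybp (0.92 and 0.95) for Ccl7. For Csf1 they were Soat1 (0.91 and 0.94) and Pitpnb (0.90 and 0.89), for Cxcl12 Eml1 (0.97 and 0.93) and Wdr6 (0.95 and 0.93), and for Ptges Clmp (0.98 and 0.92) and Anxa7 (0.95 and 0.91). Il6 (Abcf2, 0.90 and 0.82), Cxcl1 (Snai2, 0.85 and 0.79) and Lif (Ireb2, 0.81 and 0.73) had looser matches.

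Some libraries stood apart from their line, and some markers differed between the lines. KO library 1 in 1 mM glucose was the lowest KO library for 8 of the 9 genes, all but Cxcl12, and WT library 1 and Cyto library 1 in that medium were each the lowest of their line for 6. WT library 2 in 1 mM glucose stood farthest from its group over all genes, with a root mean square deviation of 0.40 on the log2 scale, beside 0.20 for the closest library. In 1 mM glucose the summed level of the 3 measured leukocyte markers, as a log2 value, ran from 4.36 to 4.66 in Nuc, 3.35 to 3.80 in Cyto, 3.06 to 3.76 in WT and 4.26 to 4.55 in KO cells, and in 10 mM glucose from 4.85 to 5.13, 3.78 to 3.96, 4.19 to 4.30 and 3.64 to 4.48 in the same order. The 2 measured endothelial markers, Tek and Egfl7, summed to 1.59 to 2.20 in Nuc, 2.35 to 2.64 in Cyto, 1.42 to 1.91 in WT and 0.99 to 2.04 in KO cells in 1 mM glucose. With Pecam1, measured in 10 mM glucose only, they summed to 2.00 to 2.72, 2.24 to 2.48, 1.93 to 2.93 and 0.77 to 2.42 in the same order there. Krt19 in 1 mM glucose was lowest in Cyto cells, at 1.90 to 2.28, against 4.78 to 5.18 in Nuc, 4.40 to 5.37 in WT and 3.08 to 3.55 in KO cells. In 10 mM glucose it ran from 4.95 to 5.66 in Nuc, 4.45 to 4.49 in Cyto, 4.79 to 5.34 in WT and 4.55 to 4.89 in KO cells. The fibroblast list summed to 15.76 to 15.89 in Nuc, 15.12 to 15.25 in Cyto, 15.88 to 16.08 in WT and 15.22 to 15.45 in KO cells in 1 mM glucose. At 10 mM glucose it summed to 15.66 to 15.75 in Nuc, 15.22 to 15.35 in Cyto, 15.50 to 15.54 in WT and 14.74 to 14.81 in KO cells, so that all KO libraries lay below all libraries of the ACLY lines. The part of these markers in the results was not tested, and fewer cells making a transcript and less transcript per cell cannot be told apart in bulk RNA.

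Of 22 other chemokines 4 had values in 1 mM and 5 in 10 mM glucose, and Cxcl2, Cxcl10 and Ccl5 had none. Of 23 other cytokines and growth factors 16 had values in each medium, and Tnf, Il1a and Il1b had none. Cx3cl1, a membrane-bound chemokine, was higher in Cyto than in KO cells in 1 mM (1.60 ± 0.09) and 10 mM glucose (1.59 ± 0.13), and likewise in WT cells (1.06 ± 0.09 and 1.60 ± 0.12). Ccl9 was lower in 1 mM glucose in Nuc (-1.61 ± 0.29), Cyto (-2.04 ± 0.29) and WT cells (-1.75 ± 0.29). Under 10 mM glucose it was lower in Nuc (-1.56 ± 0.25) and WT cells (-1.54 ± 0.25), and -0.44 ± 0.27 in Cyto cells was not called. Of the 16 measured cytokines in 1 mM glucose 3 were higher and 8 lower in Nuc than in KO cells, 6 higher and 7 lower in Cyto, and 4 higher and 5 lower in WT cells. With 10 mM glucose these counts were 2 higher and 4 lower in Nuc, 5 higher and 4 lower in Cyto, and 3 higher and 4 lower in WT cells. The called share in 1 mM glucose was 68.8% in Nuc, 81.3% in Cyto and 56.3% in WT cells, beside 60.0%, 64.7% and 58.2% of all genes. In 10 mM glucose it was 37.5% in Nuc, 56.3% in Cyto and 43.8% in WT cells, beside 45.3%, 38.5% and 40.8%. Vegfa, the growth factor of blood vessels, was higher in all 6 comparisons with KO cells, most in Cyto cells (1.35 ± 0.09 in 1 mM and 1.1 ± 0.10 in 10 mM glucose). Il1rn, the natural blocker of the IL-1 receptor, was lower in 1 mM glucose in Nuc (-1.60 ± 0.07), Cyto (-0.77 ± 0.07) and WT cells (-1.18 ± 0.07), and in 10 mM glucose in Nuc (-1.10 ± 0.09) and Cyto cells (-0.52 ± 0.10).

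The receptors of the chemokines on the list, such as Ccr2, Cxcr2 and Cxcr4, had no values. Of the 7 measured among the 18 receptors looked for, 2 were higher and 2 lower in Nuc than in KO cells in each medium, 2 higher and 3 lower in Cyto cells in 1 mM and 2 higher and 2 lower in 10 mM glucose, and none was higher in WT cells, with 4 lower in 1 mM and 3 lower in 10 mM glucose. The called share was 57.1% in Nuc, 71.4% in Cyto and 57.1% in WT cells in 1 mM, beside 60.0%, 64.7% and 58.2% of all genes. At 10 mM glucose 57.1%, 57.1% and 42.9% stood beside 45.3%, 38.5% and 40.8% in the same order. Osmr, the receptor of oncostatin M, was higher in Nuc (0.95 ± 0.09) and Cyto cells (1.30 ± 0.09) in 1 mM glucose, and in 10 mM glucose lower in Cyto (-0.42 ± 0.12) and WT cells (-0.83 ± 0.11). Il6st, which encodes gp130, was lower in Nuc cells in 1 mM (-0.57 ± 0.13) and 10 mM glucose (-0.66 ± 0.12), and in WT cells in 10 mM glucose (-0.31 ± 0.12). Of 16 genes of gp130, JAK and STAT signalling, 5 were higher and 5 lower in Nuc, 7 higher and 4 lower in Cyto and 5 lower in WT than in KO cells in 1 mM glucose. That is a called share of 62.5% in Nuc, 68.8% in Cyto and 31.3% in WT cells, beside 60.0%, 64.7% and 58.2% of all genes. In 10 mM glucose 3 were higher and 4 lower in Nuc, 5 higher and 3 lower in Cyto, and 2 higher and 2 lower in WT cells. The called share there was 43.8%, 50.0% and 25.0%, beside 45.3%, 38.5% and 40.8% of all genes. Stat3, a transcription factor that acts downstream of gp130, was lower in Cyto than in KO cells in 1 mM (-0.26 ± 0.07) and higher in 10 mM glucose (0.35 ± 0.09), and was higher in Nuc cells in both media (0.24 ± 0.07 and 0.49 ± 0.09).

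Genes of the signalling that is known to act on several of the 10 genes were described in the same way. Of the NF-kappaB subunits, kinases and feedback genes, 24 had values in 1 mM glucose, with 4 higher and 13 lower in Nuc, 9 higher and 7 lower in Cyto, and 5 higher and 11 lower in WT than in KO cells. Under 10 mM glucose 25 had values, with 3 higher and 13 lower in Nuc, 5 higher and 5 lower in Cyto, and 2 higher and 14 lower in WT cells. The called share in 1 mM glucose was 70.8% in Nuc, 66.7% in Cyto and 66.7% in WT cells, beside 60.0%, 64.7% and 58.2% of all genes. With 10 mM glucose it was 64.0% in Nuc, 40.0% in Cyto and 64.0% in WT cells, beside 45.3%, 38.5% and 40.8%. The median log2 fold change of the list against KO cells in 1 mM glucose was -0.17 in Nuc, 0.08 in Cyto and -0.30 in WT cells. The medians in 10 mM glucose were -0.28 in Nuc, 0.02 in Cyto and -0.26 in WT cells. In Cyto against WT cells 13 were higher and 3 lower in 1 mM glucose (66.7%, beside 53.2% of all genes), and 14 higher and 3 lower in 10 mM glucose (68.0%, beside 31.5%). Birc3, an inhibitor of apoptosis and an NF-kappaB target, was lower in 1 mM glucose in Nuc (-2.21 ± 0.36), Cyto (-1.20 ± 0.36) and WT cells (-3.95 ± 0.36). In 10 mM glucose it was lower in Nuc (-1.34 ± 0.42) and WT cells (-2.76 ± 0.42), and the mean level of 2.51 in Cyto cells, against 3.52 in KO cells, was not called different (limma adjusted p = 0.0946). Nfkbie, which holds NF-kappaB in the cytoplasm, was lower in 1 mM glucose in Nuc (-1.82 ± 0.14), Cyto (-0.42 ± 0.14) and WT cells (-1.08 ± 0.14). At 10 mM glucose it was lower in Nuc (-1.47 ± 0.14) and WT cells (-1.18 ± 0.14), and -0.16 ± 0.15 in Cyto cells was not called. Of 25 sensing genes upstream, 5 were higher and 9 lower in Nuc, 10 higher and 9 lower in Cyto, and 8 higher and 10 lower in WT cells in 1 mM glucose, a called share of 56.0%, 76.0% and 72.0% beside the same 60.0%, 64.7% and 58.2% of all genes. Il1rl1, the receptor of IL-33, was lower in every ACLY line and medium, to -3.37 ± 0.15 in Cyto cells in 1 mM glucose, and Irak2, a kinase of the IL-1 receptor complex, was higher in Nuc and WT cells in 1 mM glucose (Nuc 1.11 ± 0.10, WT 0.71 ± 0.10) and lower in Cyto cells (-0.26 ± 0.10), and higher in all 3 lines in 10 mM glucose (Nuc 1.48 ± 0.07, Cyto 1.03 ± 0.07, WT 0.76 ± 0.07).

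Of 24 AP-1, C/EBP and related factors measured in 1 mM glucose, 8 were higher and 4 lower in Nuc, 10 higher and 3 lower in Cyto, and 9 higher and 2 lower in WT than in KO cells. Under 10 mM glucose 23 were measured, with 10 higher and 8 lower in Nuc, 8 higher and 3 lower in Cyto and 7 higher and 3 lower in WT cells. The called share in 1 mM glucose was 50.0% in Nuc, 54.2% in Cyto and 45.8% in WT cells, each below the 60.0%, 64.7% and 58.2% of all genes. With 10 mM glucose it was 78.3% in Nuc, 47.8% in Cyto and 43.5% in WT cells, beside 45.3%, 38.5% and 40.8%. Atf3, a stress-induced factor, was higher in 1 mM glucose in Nuc (1.83 ± 0.14), Cyto (3.32 ± 0.14) and WT cells (1.38 ± 0.14), and in 10 mM glucose too (0.98 ± 0.16, 1.39 ± 0.17 and 0.70 ± 0.16). Cebpb, which binds C/EBP elements, was higher in all 6 comparisons, from 0.37 ± 0.13 to 1.04 ± 0.12. Fosl1, an AP-1 subunit, was higher in Nuc (0.89 ± 0.14) and Cyto cells (1.98 ± 0.14) in 1 mM glucose, and lower in Nuc (-1.02 ± 0.21) and WT cells (-1.78 ± 0.21) in 10 mM glucose. Of 16 genes of the decay of AU-rich mRNAs, a class that includes Il6, Cxcl1 and Ptgs2, 4 were higher and 3 lower in Nuc, 5 higher and 1 lower in Cyto and 3 higher and 4 lower in WT cells in 1 mM glucose, and 2 higher and 7 lower, 2 higher and 4 lower, and 3 higher and 6 lower in the same order in 10 mM glucose. The called share was 43.8% in Nuc, 37.5% in Cyto and 43.8% in WT cells in 1 mM glucose, below the share of all genes in each. In 10 mM glucose the share was 56.3%, 37.5% and 56.3% in the same order, beside 45.3%, 38.5% and 40.8% of all genes. Dusp1, a phosphatase that switches off p38, was lower in Nuc cells in 1 mM (-1.06 ± 0.29) and 10 mM glucose (-1.70 ± 0.12), and in Cyto cells in 10 mM glucose (-0.50 ± 0.13).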

How the data were processed

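RNA from the fibroblast lines was sequenced as bulk mRNA libraries. Per the submitters' processing notes, kallisto, edgeR, limma and the build GRCm39 were used; their versions and settings, like the minimum that genes had to pass, are not given in the sources used here. For each medium the authors deposited 1 table of normalized log2 values; per the labels the media were separate batches (batch 1 for 1 mM, batch 2 for 10 mM glucose). Their offset and scaling are not stated. From the values, the lowest is the same in every library of a table and linear sums resemble CPM, while whole reads could not be recovered, so depth is unknown and no counting intervals are given. The entry without a symbol, 1 per table, was left out. No value was filtered or transformed.

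Lines were compared with limma 3.58.1 in R 4.3.3: group means of all 4 lines in 1 fit per table, an intensity trend in the prior variance, Benjamini-Hochberg adjustment over the table, and calls at an adjusted p under 0.05. Fold changes are log2 differences with the line named first on top. Media were compared as differences of fold changes over the shared genes. The fit was checked on simulated data. Alternatives were other scalings, a pseudocount, a filter on low values, library weights, a replicate block, fewer groups and libraries left out.

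Besides the 10 genes and Acly, up to 4 genes per list were named, those called in the most of the 12 within-table comparisons, with ties settled by the wider range of line means, and for each member the 2 most alike genes by the lower r over both media among genes above the median level. A gene that this rule names is not reported here. Members and lists were chosen with earlier results of these data known. Promoters came from RefSeq's GRCm38.p6 table, and gene neighbours from its GRCm38.p6 gene table.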

Additional observations from a re-analysis of the deposited data

Results flagged for a closer look

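In 63 groups of 4 libraries tested by Dixon's criterion 2 held a library far from the others, and chance gives about 1 in 20. Nuc library 4 in 1 mM glucose stood at 4.33 for Ccl7, above its 3 neighbours, and KO library 1 in 1 mM glucose stood at 7.51 for Csf1, below its 3 neighbours.

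Of 36 differences between media, 24 were called by limma, with medium and batch confounded. Of all genes, 36.5% were called for Nuc, 44.7% for Cyto and 26.2% for WT over KO cells, and 19.0% for Nuc over Cyto cells. These comparisons share libraries, so the 24 calls are not separate observations. The called differences are given here as log2 fold changes in low glucose (1 mM) less those in high glucose (10 mM). For Ptgs2 they were 3.17 in Nuc, 3.74 in Cyto and 1.90 in WT over KO cells. For Il6 they were 2.23 in Nuc and 2.20 in Cyto over KO cells. Csf1 gave 0.78 in Nuc, 1.55 in Cyto and 0.92 in WT over KO cells, and -0.78 for Nuc over Cyto cells. Ccl2 gave 1.14 in Nuc and 1.69 in WT over KO cells, and 1.21 for Nuc over Cyto cells. Ccl7 gave 1.98 in Nuc, 1.48 in Cyto and 1.89 in WT over KO cells. Cxcl1 gave 2.99 in Nuc and 1.52 in Cyto over KO cells, and 1.47 for Nuc over Cyto cells. The negative ones were those of Cxcl12, at -1.33 in Nuc, -1.52 in Cyto and -0.98 in WT over KO cells, and of Ptges, at -1.05 in Nuc, -0.77 in Cyto and -0.84 in WT over KO cells.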

How the results depend on the processing

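No called fold change of the 9 genes changed sign under any alternative run, and the count of members called stayed within 1.5 times of the reported one in all but 1 case: for the media difference of Nuc over Cyto cells it was 5, against 3, when only the 4 groups compared were fitted. Over all genes that comparison had 3672 calls with library weights, against 2261. Leaving out libraries gave 6 to 7 members called in Nuc over Cyto cells in 1 mM and 5 to 7 in 10 mM glucose. The fits with Cyto library 3 in 10 mM glucose could not be run, since no column holds it.

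Sign changes were limited to uncalled values. With quantile normalization they were Ccl7 in Nuc over KO cells in 1 mM (0.011), Ptges in Nuc over Cyto cells (0.017) and Il6 in WT over KO cells in 10 mM glucose (0.046), and the media differences of Ccl2 in Cyto (0.0053) and Lif in Nuc over KO cells (0.11). Ptges in Nuc over Cyto cells in 10 mM glucose was also 0.013 with equal medians, 0.018 with the replicate block and 0.0071 without the libraries numbered 4. Library weights gave media differences of 0.0015 for Ccl2 and -0.083 for Lif in Cyto over KO cells, and the pseudocount gave -0.13 for Il6 in Nuc over Cyto cells. Without the libraries numbered 4, the media difference of Lif was -0.072 in Cyto and 0.066 in Nuc over KO cells and 0.14 in Nuc over Cyto cells. Leaving out 1 library moved the media differences of Lif from -0.28 to 0.24 in Cyto, -0.41 to 0.10 in Nuc and -0.11 to 0.45 in WT over KO cells and from -0.36 to 0.14 in Nuc over Cyto cells, of Il6 in Nuc over Cyto cells from -0.17 to 0.24 and of Ccl2 in Cyto over KO cells from -0.17 to 0.029. The same held for Ptges in Nuc over Cyto (-0.097 to 0.10), Il6 in WT over KO (-0.42 to 0.13) and Cxcl1 in Cyto over WT cells (-0.00050 to 0.16) in 10 mM, and for Cxcl1 in WT (-0.46 to 0.17) and Ccl7 in Nuc over KO cells (-0.22 to 0.078) in 1 mM glucose. Of other changed calls not given with the results above, Csf1 in Nuc over WT cells in 1 mM glucose was lost with these lines fitted alone (adjusted p = 0.0612), and the media differences of Nuc over Cyto cells were called for Cxcl12 with quantile normalization (0.34, adjusted p = 0.0313) and for Ccl7 with library weights (0.50, adjusted p = 0.0413). The causes were not tested.

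Over all genes, deviations of same-numbered libraries had a median correlation of 0.0014 over 24 pairs in 1 mM glucose, beside 0.00082 over 72 pairs with other numbers. Same-numbered libraries were somewhat more alike in 10 mM glucose, with a median of 0.052 over 21 pairs, beside -0.012 over 63 pairs with other numbers. In 10 mM glucose 5 of the 21 were over 0.1, against 1 of 63 pairs with other numbers, and 4 of these 5 joined libraries numbered 4, up to 0.36 for KO and Nuc. Leaving out the libraries numbered 4 together had been planned because earlier work on these data had looked at them. With the number as a block, 7 members were called in WT over KO, 8 in Cyto over WT and 6 in Nuc over WT cells in 1 mM glucose, against 6, 7 and 5. The block called Cxcl1 in Nuc over Cyto (adjusted p = 0.00473) and Cyto over WT cells (adjusted p = 0.0227) and Ptgs2 in WT over KO (adjusted p = 0.0344) and Nuc over WT cells (adjusted p = 0.0431) in 1 mM glucose, and the media difference of Cxcl1 in WT over KO cells (adjusted p = 0.00862), and lost Ptges in Nuc over Cyto cells in 1 mM glucose (adjusted p = 0.0688). Under the block the media difference of Lif in Cyto over KO cells was -0.0086. Depth is unknown, the number of derivations per line is not stated, and Il6 and Lif lie low, where libraries of a line spread widely.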
